A study of Mus musculus with 12 samples.

Results

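The subject is 8 genes of the pathway that holds the mouse egg at metaphase II: *Mos*, *Map2k1*, *Mapk3*, *Rps6ka1*, *Rps6ka2*, *Rps6ka3*, *Fbxo43* and *Fbxo5*. They were chosen by name for their place in that pathway, and all 8 were found among the 56691 genes of the count table. RNA of wild-type (WT) and *Alkbh5*-/- (KO) oocytes was sequenced in 12 libraries, 2 for each genotype at each of 3 stages of meiotic maturation. The stages were named germinal vesicle (GV), the prophase arrest, germinal vesicle breakdown (GVBD), which opens meiosis anew, and metaphase II (MII). The mice were on a C57BL/6 background, and the KO allele, made with CRISPR-Cas9, lacked exon 1 of *Alkbh5* with its start codon in every cell of the animal. ALKBH5 is an enzyme that removes the methyl group of N6-methyladenosine from RNA. WT mice were the controls. Oocytes came from juvenile females primed with gonadotropin, were freed of cumulus cells and zona, and were pooled. By the study's methods, GV oocytes were collected without culture, GVBD oocytes after short and MII oocytes after overnight culture. The study describes that most KO oocytes did not break down the germinal vesicle in culture and that few released a polar body, so libraries labelled KO GVBD or KO MII may hold oocytes of earlier stages. The study calls the libraries of a group biologically independent and says that oocytes from several mice were split at random, but which mice gave which library is not stated, so p-values measure the spread between these libraries only.

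In vertebrate eggs the kinase MOS, made from stored mRNA once meiosis resumes, phosphorylates MEK1, the product of *Map2k1*. MEK1 activates ERK1, the product of *Mapk3*. ERK in turn acts on the ribosomal S6 kinases of the RSK family (*Rps6ka1*, *Rps6ka2*, *Rps6ka3* and *Rps6ka6*). EMI2, the product of *Fbxo43*, binds and inhibits the anaphase-promoting complex (APC/C), the ubiquitin ligase that marks cyclin B for destruction, until sperm-driven calcium signals have EMI2 destroyed. EMI1, the product of *Fbxo5*, is the related inhibitor that acts earlier in the cell cycle. Both arms together are known as cytostatic factor, and *Mos*-deficient mouse eggs do not stay arrested. Most of this control is exerted on translation and protein stability, and mRNA of the oocyte is made before meiosis resumes. The libraries measured polyadenylated mRNA and none of the proteins.

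Each value below is a spike-in scaled count: the reads of a gene in a library, divided by the summed reads of the added ERCC RNAs of that library relative to the mean over the 12 libraries. It therefore follows the amount of RNA in a tube, and in pools of oocytes fewer oocytes and less RNA per oocyte cannot be told apart. Differences were tested by the quasi-likelihood test of edgeR on the whole table, with p-values adjusted by the Benjamini-Hochberg method over all tested genes. A gene was called when the adjusted p was under 0.05 and the change at least 2-fold. Total counts, in units of 1e6, were 28.6 to 40.2 per library, and 221927 to 838409 counts of a library fell on the ERCC sequences. Between 19837 genes (KO MII replicate 2) and 24436 genes received a count. The targeted gene matched the labels: *Alkbh5* was at 3020 to 13653 scaled counts in the WT and at 51 to 260 in the KO libraries. All 14 oocyte markers were detected in every group, with a summed level of 11116 to 23069 transcripts per 1e6 transcripts (TPM). The 15 cumulus and granulosa cell markers summed to 13.1 to 34.7 TPM, with *Areg* at 0 in all groups and *Amh* and *Foxl2* at 0 in most. The 5 blood cell markers differed widely between libraries, with 27.2 to 89.1 TPM in WT MII and 22.9 to 27.8 in KO GVBD, but 4107 to 4526 in WT GVBD, 4427 to 7665 in KO GV, 34.1 and 7749 in the WT GV libraries, and 26.8 to 1484 in KO MII. KO MII replicate 2 stood apart in detecting the fewest genes, and the fold changes of members from GV to MII in KO, between genotypes at MII and over all stages, and in the interaction are given with and without it. Its reads of genes per ERCC read (54.7) were below those of KO MII replicate 1 (87.9). In WT MII replicate 2 that ratio was lower still (47.0, against 73.3 in replicate 1), and values without that library are not singled out.

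The labels and the study's methods describe different library protocols, but both start from RNA with a poly(A) tail, so the ends of the transcripts that carry the tail are shown first. Storage and activation of oocyte mRNAs run through the cytoplasmic polyadenylation element (CPE) in the 3′ untranslated region, commonly TTTTAT or TTTTAAT in DNA letters, and through the polyadenylation signal AATAAA or its variant ATTAAA. The last 150 bases of the 3′ untranslated region of the longest GENCODE M21 transcript (GRCm38) were searched on the transcript's strand for these words. The 6 stretches below were picked for the most abundant member, for the paired inhibitors *Fbxo43* and *Fbxo5*, and for *Rps6ka3*. Capitals mark the word found, and each line is read 5′ to 3′ along the mRNA.
Mos, signal: tttttaggaAATAAAgttaccacg
Rps6ka3, signal: aatttatatAATAAAgtttcaagt
Fbxo43, CPE: tatatgtgtTTTTATactatacac
Fbxo43, signal: aaactaataATTAAAtttaaaatt
Fbxo5, CPE: gtgagttttTTTTATatctgtgaa
Fbxo5, signal: tttagttaaAATAAAtttagaggt

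The *Mos* stretch lies at chr4:3870664-3870687 on the minus strand, in the only exon of the gene (chr4:3870657-3872105), and its signal ends 16 bases before the annotated transcript end. The *Rps6ka3* stretch lies at chrX:159368215-159368238 on the plus strand. In *Fbxo43* (minus strand) the CPE stretch is at chr15:36150148-36150171, 97 bases from the end, and the signal stretch at chr15:36150071-36150094, 20 bases from it. In *Fbxo5* (minus strand) they are at chr10:5799229-5799252 and chr10:5799162-5799185, 78 and 11 bases from the end. The word TTTTAT occurred in 3 of the 8 members (*Fbxo43*, *Fbxo5* and *Rps6ka2*) and in 17.1% of 20996 protein-coding genes in the same window. TTTTAAT occurred in 0 members and in 6.23% of these genes. AATAAA occurred in 6 members and in 65.2% of genes, ATTAAA in *Fbxo43* and in 22% of genes, and the window of *Mapk3* held none of the 4 words. The 3′ untranslated region of *Mos*, 126 bases long, was searched whole for these words. Other forms of the CPE were not searched for, so a member without TTTTAT and TTTTAAT is not shown to lack a CPE. These are matches of letters in annotated transcripts, not measured sites of processing or of CPEB binding.

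The levels were first set in order per length of transcript, as TPM over the union of exons. *Mos* was the most abundant member in all 6 groups, with group means from 143 TPM in WT GVBD to 641 TPM in WT MII. In WT GV oocytes it ranked 707th among 25163 genes with a count, and in WT MII oocytes 246th among 23657. *Mapk3* was next at the GV stage, with 61.4 and 72.7 TPM in the WT libraries, ahead of *Fbxo5* with 45.8 and 50.8 and *Map2k1* with 37.6 and 38.1. *Rps6ka3* had 13.3 and 13.4 TPM and *Fbxo43* 10.3 and 10.4, and the ranges of these 6 genes did not overlap. *Rps6ka1* (0.637 and 0.94 TPM) and *Rps6ka2* (0.105 and 0.263 TPM) were far below them. At MII in WT the order was *Mos*, *Mapk3*, *Map2k1*, *Fbxo5*, *Fbxo43*, *Rps6ka3*, *Rps6ka1* and *Rps6ka2*, and the ranges of *Map2k1* (89.7 and 98.1 TPM) and *Fbxo5* (70.9 and 93.7 TPM) overlapped. *Fbxo43* and *Rps6ka3* thus stood in the opposite order at GV and at MII in WT. In KO GV libraries *Fbxo43* (13.0 and 16.9 TPM) already overlapped *Rps6ka3* (12.2 and 14.5 TPM), and in KO MII libraries it stood above it, at 37.6 and 39.1 against 7.78 and 12.5 TPM. With the longest transcript as length, *Fbxo5* and *Map2k1* changed places in the GV groups and in KO GVBD, and *Fbxo43* and *Rps6ka3* in KO GV.

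**Figure D1:**
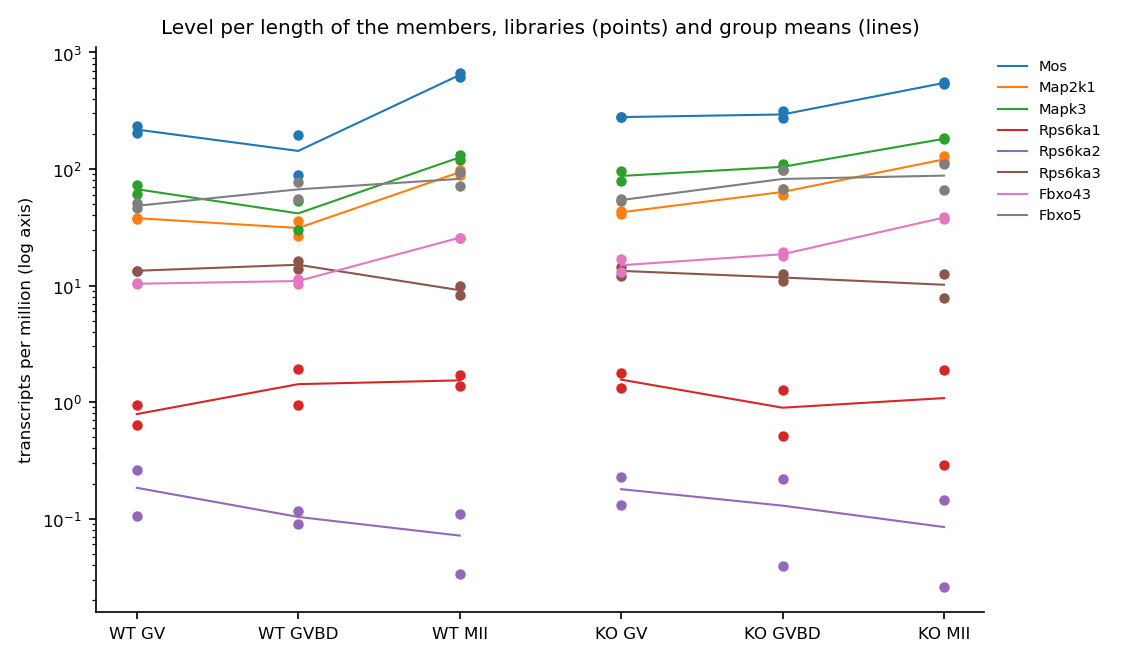
TPM of the 8 genes on a log axis, by genotype and stage, with 1 point per library and lines through group means within a genotype. *Mos* is highest in every group, *Rps6ka1* and *Rps6ka2* are lowest, and *Fbxo43* lies below *Rps6ka3* in WT GV and above it in WT MII.

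At the MEK and RSK steps of the cascade 1 paralog carried most of the mRNA per length. *Map2k1* made up 96.3% to 99.8% of the summed TPM of *Map2k1* and *Map2k2*, the gene for the second MEK. *Rps6ka3* (RSK2) was the leading RSK gene in every library, with 51.9% to 78.9% of the summed TPM of the 4 genes. *Rps6ka6* (RSK4), which is outside the list of 8, came second with 11.6% to 45.3%, *Rps6ka1* (RSK1) had 1.96% to 10.7% and *Rps6ka2* (RSK3) 0.176% to 1.48%. *Fbxo43* held 11.8% to 26.6% of the pair with *Fbxo5* in WT and 15.5% to 37.3% in KO. No test was run on these shares.

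**Figure D2:**
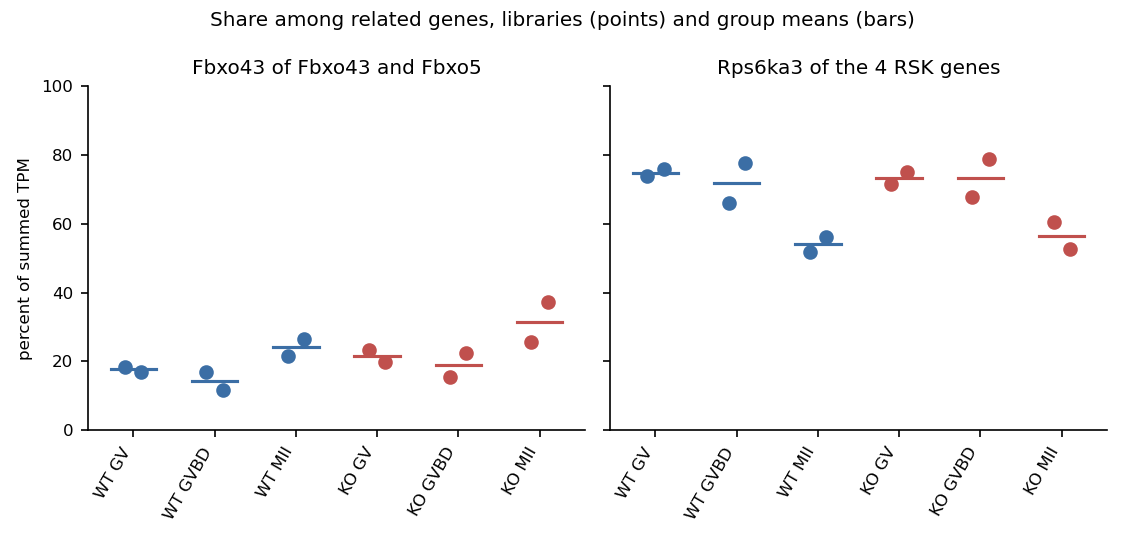
Percent of summed TPM held by *Fbxo43* (with *Fbxo5*) and *Rps6ka3* (of the 4 RSK genes), with 1 point per library and bars at group means. The *Fbxo43* share runs from 11.8% to 37.3%, and the *Rps6ka3* share from 51.9% to 78.9%.

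Next, the genes were followed from GV to MII, when much of the maternal mRNA pool is removed. On the spike-in scale the median log2 change over all tested genes was −1.06 in WT and −1.17 in KO. *Mos*, *Map2k1*, *Mapk3*, *Fbxo43* and *Fbxo5* lay above that median in both genotypes, and the median log2 change of the 8 members was −0.06 in WT and 0.03 in KO. In WT 1 of the 8 members was called, lower at MII, against 30.9% of 18816 tested genes called in either direction and 30.5% lower. In KO 0 of 8 were called by edgeR, against 3.28% of 18777 tested genes. DESeq2 also called 0 members, against 16 genes higher and 3052 lower. An unadjusted p under 0.05 was found for 0 members and for 4626 of these genes.

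In WT *Mos* had 7702 and 6306 scaled counts (GV), 3086 and 4552 (GVBD) and 11641 and 8402 (MII). Both MII libraries were above both GV libraries, and both GVBD libraries below them. The log2 change from GV to MII was 0.52 ± 0.46 (SE; edgeR adjusted p = 0.452). It was above that of 94.8% of tested genes. From GVBD to MII it was 1.39 ± 0.64 (edgeR adjusted p = 0.0872), and from GV to GVBD −0.87 ± 0.38 (edgeR adjusted p = 0.792). In KO *Mos* had 10674 and 9527 (GV), 11336 and 7836 (GVBD) and 13507 and 8652 (MII). Scaled counts of the 3 KO groups overlapped, and the log2 change from GV to MII was 0.13 ± 0.53 (edgeR adjusted p = 0.902), or 0.42 without KO MII replicate 2.

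*Map2k1* had 2900 and 2779 scaled counts in WT GV and 4370 and 2630 in WT MII, with a log2 change of 0.30 ± 0.48. The groups overlapped. In KO it had 3934 and 3285 at GV and 6492 and 4794 at MII, without overlap, and a log2 change of 0.64 ± 0.55, or 0.85 without KO MII replicate 2. In WT *Mapk3* had 3735 and 2981 scaled counts (GV), 1609 and 1923 (GVBD) and 3933 and 2328 (MII). Its GVBD libraries were below all others of WT, while GV and MII overlapped. The log2 change was −0.93 ± 0.37 from GV to GVBD (edgeR adjusted p = 0.694) and −0.10 ± 0.47 from GV to MII. In KO *Mapk3* had 4683 and 5097 (GV), 6225 and 4373 (GVBD) and 6956 and 4485 (MII), all above every WT library. How many of the tested genes did the same was not counted. Its log2 change from GV to MII in KO was 0.23 ± 0.55, or 0.51 without KO MII replicate 2.

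*Rps6ka3* was the member called in WT. It had 2522 and 2406 scaled counts (GV), 3221 and 1855 (GVBD) and 908 and 715 (MII), so both MII libraries lay below all other WT libraries. It fell by 1.60 on the log2 scale from GV to MII (SE 0.50, edgeR adjusted p = 0.00643), a larger fall than the median gene but one exceeded by 37% of tested genes. The adjusted p was 0.333 without WT GV replicate 1 and 0.327 without WT GV replicate 2, where the remaining GV library was assumed to vary like the MII libraries. From GVBD to MII in WT the log2 change was −1.65 ± 0.67 (edgeR adjusted p = 0.0504). In KO *Rps6ka3* had 3208 and 2381 (GV), 2601 and 1795 (GVBD) and 1752 and 714 (MII), and the GV to MII change was −1.18 ± 0.66 (edgeR adjusted p = 0.295), or −0.67 without KO MII replicate 2. Without KO MII replicate 1 it was −1.97, so the KO value turned on which of the MII libraries was used. The other RSK members were too sparse for a firm value. *Rps6ka1* had 19 to 145 raw counts and *Rps6ka2* 4 to 40 in a library, and their replicates differed by several-fold in some groups.

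In WT *Fbxo43* had 946 and 904 scaled counts (GV), 1106 and 669 (GVBD) and 1366 and 897 (MII). The 3 groups overlapped, with a log2 change from GV to MII of 0.29 ± 0.50. In KO it had 1802 and 1234 (GV), 1787 and 1544 (GVBD) and 2549 and 1741 (MII), with a change of 0.50 ± 0.61, or 0.75 without KO MII replicate 2. In WT *Fbxo5* had 2088 and 2187 scaled counts (GV), 2670 and 2495 (GVBD) and 2466 and 1228 (MII). In KO it had 2939 and 2493 (GV), 4824 and 2671 (GVBD) and 3695 and 1453 (MII). Its log2 change from GV to MII was −0.21 ± 0.49 in WT and −0.08 ± 0.64 in KO, where it turned to 0.44 without KO MII replicate 2. The MII replicates of *Fbxo5* were the most spread of the well-counted members.

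**Figure D3:**
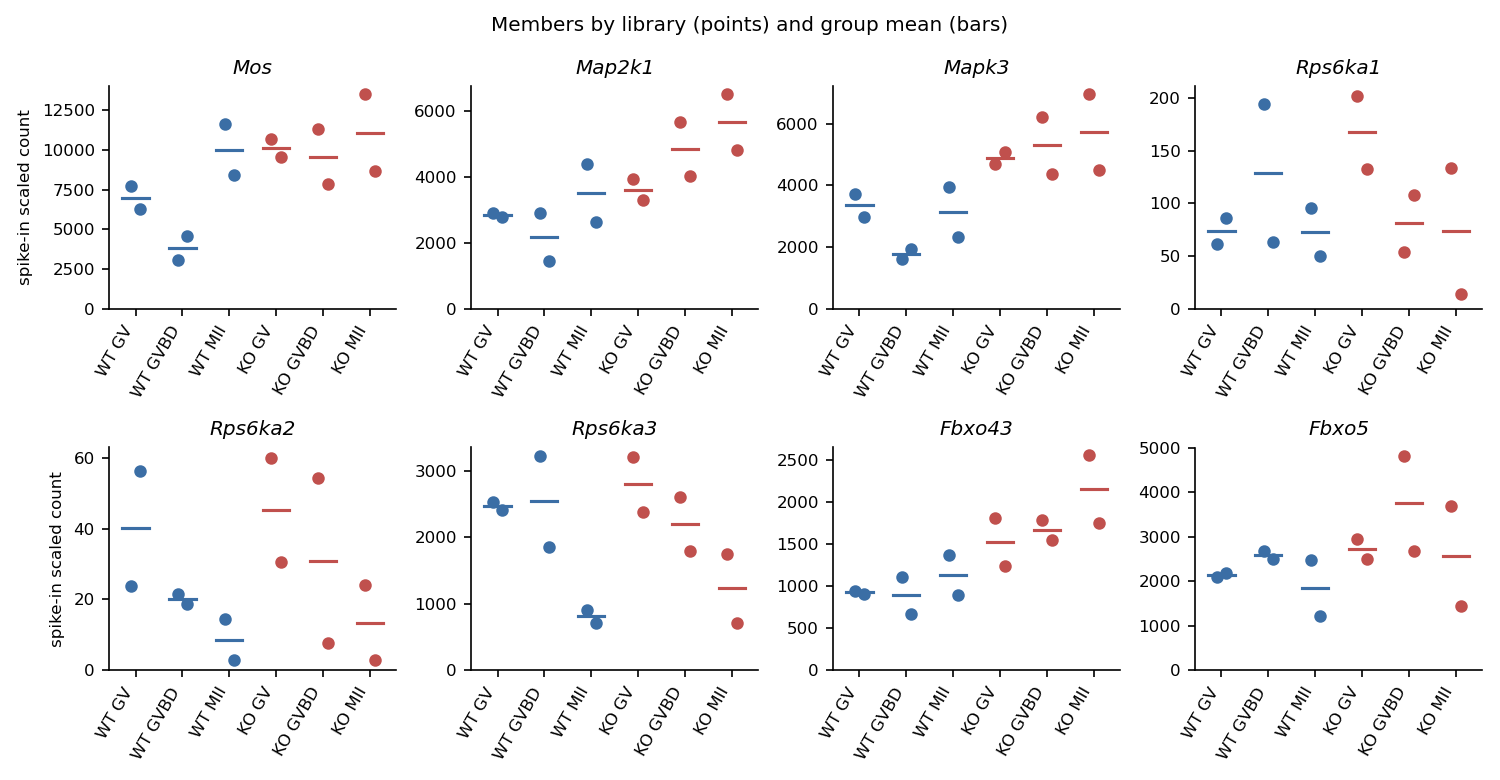
Spike-in scaled counts of the 8 genes, with 1 point per library, bars at the group mean and the axis of each panel starting at 0. In WT *Mos* and *Mapk3* dip at GVBD and *Rps6ka3* is low at MII (908 and 715), while the lowest KO library of *Mapk3* (4373) lies above the highest WT library (3933).

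How far the members changed depends on the scale. TMM scaling sets the typical gene to no change and so measures the share of a gene in the remaining mRNA, and it moved the median of all tested genes to −0.14 in both genotypes. On that scale 3 of 8 members were called from GV to MII in WT, all higher: *Mos* by 1.45 ± 0.23 (edgeR adjusted p = 0.00844), *Map2k1* by 1.21 ± 0.18 (edgeR adjusted p = 0.00766) and *Fbxo43* by 1.21 ± 0.20 (edgeR adjusted p = 0.00937) on the log2 scale. The share of all tested genes called was 24.7% in either direction and 8.47% higher. *Rps6ka3* was at −0.65 ± 0.21 (edgeR adjusted p = 0.068) and was no longer called. In KO 2 members were called higher, *Map2k1* by 1.81 ± 0.31 (edgeR adjusted p = 0.044) and *Fbxo43* by 1.66 ± 0.29 (edgeR adjusted p = 0.0447), against 1.19% of tested genes called higher, and *Mos* was at 1.26 ± 0.28 (edgeR adjusted p = 0.0595). Without KO MII replicate 2, a setting chosen after seeing the data, KO MII was left with a single library. The log2 changes on that scale were then 1.42 (*Map2k1*), 1.34 (*Fbxo43*), 1.06 (*Mapk3*), 1.02 (*Fbxo5*) and 0.988 (*Mos*). The share of all tested genes called in that setting is not given here. From GVBD to MII in WT 4 members were called higher on the TMM scale, *Mos*, *Map2k1*, *Mapk3* and *Fbxo43*, with log2 changes of 2.26, 1.68, 1.68 and 1.32, against 9.9% of tested genes. On the spike-in scale 0 of 8 were called there by edgeR, against 27.8% of tested genes called in either direction. An unadjusted p under 0.05 was found there for 2 members and for 7201 of 19211 tested genes. DESeq2 called 2 in that comparison, *Mos* higher (adjusted p = 0.0173) and *Rps6ka3* lower (adjusted p = 0.00647), against 28.4% of tested genes.

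**Figure D4:**
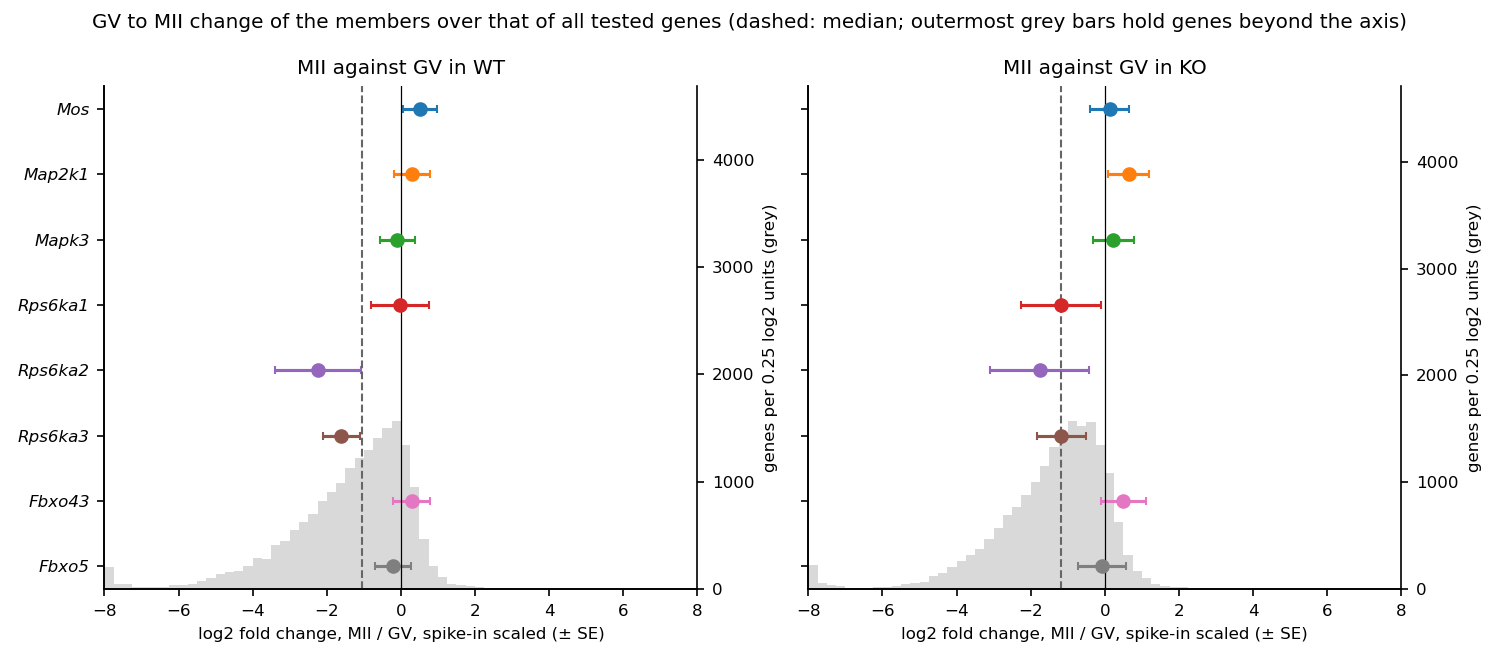
Log2 fold change from GV to MII (spike-in scale) of the 8 genes with standard errors, over the histogram of all tested genes (grey), in WT and KO, and with the median of all genes dashed. *Mos*, *Map2k1*, *Mapk3*, *Fbxo43* and *Fbxo5* lie to the right of the dashed median (−1.06 in WT, −1.17 in KO), and *Rps6ka3* lies at or left of it.

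KO was then compared with WT at each stage. The median log2 difference of all tested genes was above 0 at each stage, with values of 0.36 (GV), 0.23 (GVBD) and 0.30 (MII), and that of the 8 members was 0.44, 0.76 and 0.62. No member was called by edgeR at any stage. At GV 3 members had an unadjusted p under 0.05, as did 3475 of 19452 tested genes. DESeq2 called 0 members there, against 536 genes higher and 140 lower, and edgeR called 0.0977% of genes. At GVBD 3 members had such a p, as did 2901 of 19462 genes. DESeq2 called 1 member there, against 4.63% of genes, and edgeR called 2.54%. At MII 0 members had such a p, against 1286 of 17566 genes. DESeq2 called 0 members there, against 260 genes higher and 86 lower, and edgeR called 0.803%. Scaled counts did not overlap, with KO higher, for 6 members at GV (42.2% of tested genes), 5 at GVBD (30.3%) and 3 at MII (22.1%). *Map2k1*, *Mapk3* and *Fbxo43* were in that count at all 3 stages. The share of all tested genes in that count at all 3 stages was not computed.

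*Mapk3* had the largest log2 difference at GVBD, 1.58 ± 0.52 (edgeR adjusted p = 0.117), with 6225 and 4373 scaled counts in KO against 1609 and 1923 in WT. DESeq2 called it (adjusted p = 0.00942). It was 0.54 ± 0.19 at GV (edgeR adjusted p = 0.225) and 0.87 ± 0.77 at MII. *Mos* differed by 0.53 ± 0.18 at GV (edgeR adjusted p = 0.221), by 1.33 ± 0.52 at GVBD (edgeR adjusted p = 0.203) and by 0.14 ± 0.71 at MII. *Map2k1* differed by 0.35 ± 0.18 at GV, by 1.16 ± 0.54 at GVBD (edgeR adjusted p = 0.31) and by 0.69 ± 0.76 at MII. At GVBD the log2 differences of *Mapk3*, *Mos* and *Map2k1* exceeded those of 94.2%, 90.9% and 88% of tested genes.

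*Fbxo43* differed by 0.71 ± 0.26 at GV (edgeR adjusted p = 0.235), by 0.91 ± 0.53 at GVBD (edgeR adjusted p = 0.445) and by 0.92 ± 0.82 at MII. The KO libraries of *Fbxo43* were above the WT libraries of the same stage throughout, with 1234 as the lowest KO and 1366 as the highest WT value over all stages. *Fbxo5* differed by 0.34 ± 0.19, 0.54 ± 0.52 and 0.48 ± 0.80, close to the median gene at GV. *Rps6ka3* differed by 0.18 ± 0.21, −0.21 ± 0.52 and 0.60 ± 0.84, and its groups overlapped at each stage. At MII the values without KO MII replicate 2 were 0.43 for *Mos*, 0.89 for *Map2k1*, 1.15 for *Mapk3*, 1.11 for *Rps6ka3*, 1.17 for *Fbxo43* and 1.0004 for *Fbxo5*. With each library left out in turn, the lowest values were −0.21, 0.37, 0.52, −0.18, 0.62 and −0.35 in the same order. At GVBD, where the members differed most, 4 of the 5 blood cell markers were lower in KO and the cumulus marker *Fshr* was higher (log2 difference 3.38), while the summed cumulus markers were at 21.5 to 30.2 TPM in KO and 13.1 to 17.3 in WT. Their part in the differences of the members was not tested.

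Over all 12 libraries with stage as a covariate, the KO against WT difference was 0.997 ± 0.252 for *Mapk3* (edgeR adjusted p = 0.0691), 0.85 ± 0.23 for *Fbxo43* (edgeR adjusted p = 0.0851), 0.73 ± 0.25 for *Map2k1* (edgeR adjusted p = 0.148) and 0.66 ± 0.26 for *Mos* (edgeR adjusted p = 0.184). *Fbxo5* (0.45 ± 0.27) and *Rps6ka3* (0.19 ± 0.27) had smaller values, and the median gene was at 0.29. Of the 8 members 0 were called, against 1.26% of 22004 tested genes. An unadjusted p under 0.05 was found for 4 members and for 4146 of these genes. DESeq2 also called 0 members, against 1041 genes higher and 315 lower. The DESeq2 values of *Mapk3*, *Fbxo43* and *Map2k1* (adjusted p = 0.00371, 0.0079 and 0.0479) were under the 2-fold minimum. Without KO MII replicate 2 the log2 differences were 1.09 (*Mapk3*), 0.90 (*Fbxo43*), 0.79 (*Map2k1*), 0.81 (*Mos*), 0.59 (*Fbxo5*) and 0.28 (*Rps6ka3*). With each library left out in turn, that of *Mapk3* ran from 0.86 to 1.12. On the TMM scale the difference was 0.73 ± 0.21 for *Mapk3* (edgeR adjusted p = 0.0696) and 0.61 ± 0.14 for *Fbxo43* (edgeR adjusted p = 0.0325), the latter under the 2-fold minimum.

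**Figure D5:**
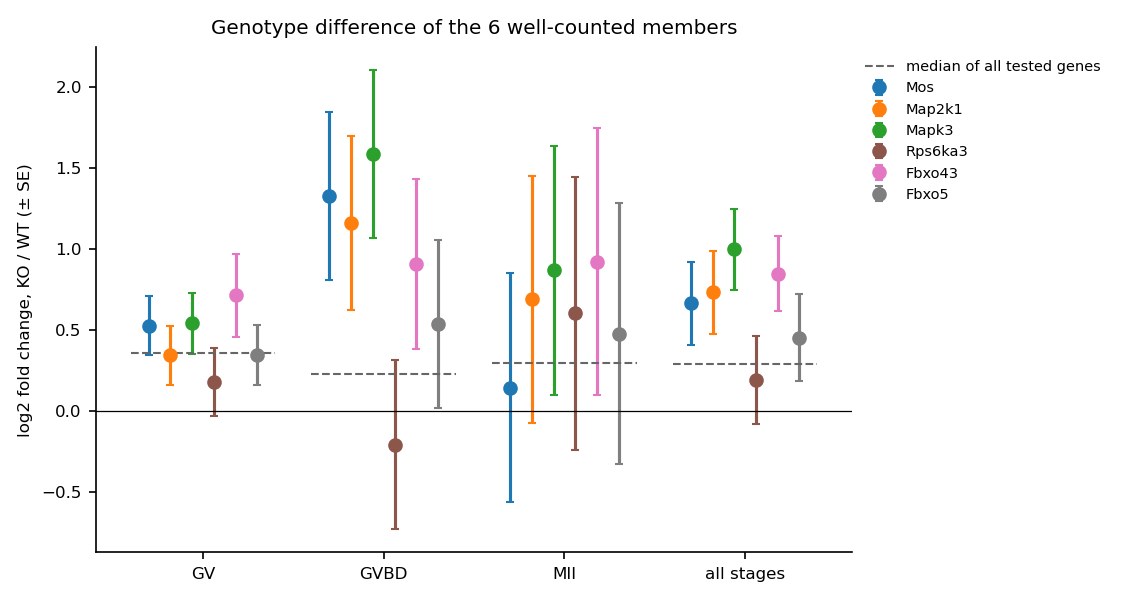
Log2 difference between KO and WT (spike-in scale, with standard errors) of the 6 well-counted members, at each stage and over all stages, with the median of all tested genes dashed. *Mapk3* (1.58), *Mos* (1.33) and *Map2k1* (1.16) stand highest above the median at GVBD, and *Rps6ka3* lies near or below it at GV, GVBD and over all stages.

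Whether the GV to MII change itself differed between genotypes was tested as an interaction. The log2 values, KO change minus WT change, were −0.38 ± 0.61 for *Mos*, 0.34 ± 0.63 for *Map2k1*, 0.33 ± 0.65 for *Mapk3*, 0.42 ± 0.72 for *Rps6ka3*, 0.21 ± 0.68 for *Fbxo43* and 0.13 ± 0.77 for *Fbxo5*. Without KO MII replicate 2 they were −0.098, 0.55, 0.61, 0.93, 0.46 and 0.66 in the same order. By edgeR 0 of 8 members were called, against 0% of 20807 tested genes. DESeq2 also called 0 members, against 89 genes higher and 61 lower. An unadjusted p under 0.05 was found for 0 members and for 1197 of these genes. The call of *Rps6ka3* in WT and not in KO is therefore not shown to be a difference between the genotypes. From GV to GVBD 0 of 8 members were called in either genotype by edgeR, against 0.0511% of genes in WT and 0.22% in KO. DESeq2 also called 0 members, against 115 genes higher and 256 lower in WT and 24 higher and 201 lower in KO. In WT 2 members had an unadjusted p under 0.05, as did 1223 of 19566 genes. In KO 0 members had such a p, against 1459 of 19064 genes. From GVBD to MII in KO 0 members were called by edgeR, against 7.2% of 17966 tested genes. DESeq2 called 0 members there, against 12 genes higher and 2249 lower, and 0 members had such a p, against 3755 genes.

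The genes around the members were taken from lists of known pathway parts. Of the 15 measured partners and targets of the MAPK cascade, 1 was called between KO and WT at GVBD, against 2.54% of all tested genes. *Mapk1ip1*, which encodes MISS, a spindle-stabilizing MAPK substrate, was higher in KO by 3.84 ± 0.74 on the log2 scale (edgeR adjusted p = 0.00603). Its scaled counts were 5890 and 752 in KO GVBD against 247 and 216 in WT GVBD, so the KO replicates differed far more than the WT ones. Without KO GVBD replicate 1 the difference was 1.70 (edgeR adjusted p = 0.402). At GV (939 and 2966 in KO, 714 and 399 in WT) and at MII (190 and 903 in KO, 816 and 532 in WT) it was not called. From GV to MII in WT 1 of these 15 genes was called, against 30.9% of all tested genes, namely *Pea15a*, which encodes a protein that holds ERK in the cytoplasm, lower by −2.20 ± 0.83, with 24 and 26 scaled counts at MII against 36.8 and 192 at GV. Without WT GV replicate 2 the value was −0.57. From GVBD to MII in WT *Araf*, a RAF kinase gene, was called higher (1.68 ± 0.68, edgeR adjusted p = 0.0497), with 2445 and 1161 scaled counts against 452 and 673, where 27.8% of all tested genes were called. Of the 6 ERK phosphatase genes tested from GV to MII in WT, 1 was called, against the same 30.9%: *Dusp2* was lower (−3.28 ± 0.93, edgeR adjusted p = 0.00228), from 136 and 69.1 to 17.5 and 3.86 scaled counts. With TMM scaling *Mapk1ip1*, *Pea15a* and *Dusp2* were not called in these comparisons, while *Araf* was.

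The next list held genes whose products destroy EMI2 or anchor the phosphatase that protects it. Of 18 tested from GV to MII in WT, 4 were called lower and 0 higher, against 30.5% of all tested genes called lower, and the median log2 change was −0.70 against −1.06 over all genes. They were *Btrc*, the F-box protein β-TrCP that recognizes phosphorylated EMI proteins (−2.80 ± 0.53, from 2689 and 2072 to 428 and 255 scaled counts), *Ppp2ca*, the catalytic subunit of the phosphatase PP2A (−2.79 ± 0.53, from 1978 and 2440 to 376 and 262), the PP2A B56 subunit gene *Ppp2r5d* (−2.14 ± 0.56) and *Skp1a*, of the SCF ligase (−1.49 ± 0.40). *Skp1a* may share reads with near-identical copies and is uncertain. From GVBD to MII 3 of 19 were called lower in WT, *Btrc*, *Ppp2ca* and *Skp1a*, against 27.8% of all tested genes called in either direction. In KO 2 of 18 were called lower there, against 7.2% of all tested genes. These were *Btrc* (−3.23 ± 0.83, edgeR adjusted p = 0.0159) and *Ppp2ca* (−3.57 ± 0.84, edgeR adjusted p = 0.00854). The KO MII libraries had 767 and 189 scaled counts of *Btrc* and 913 and 192 of *Ppp2ca*, and without KO MII replicate 2 the values were −2.55 and −2.84 and neither was called. From GV to MII in KO 0 of 19 were called, against 3.28% of all tested genes, with log2 changes of −2.72 ± 0.77 for *Btrc* and −2.91 ± 0.80 for *Ppp2ca* against −2.80 and −2.79 in WT. Of the 18 APC/C subunit, activator and E2 genes, 5 were called lower and 0 higher from GV to MII in WT, against the same 30.5% of all tested genes, and the median log2 change was −0.53. The largest falls were those of *Anapc15* (−3.19 ± 0.51, from 8517 and 8472 to 969 and 890 scaled counts), a subunit that acts in checkpoint release, *Anapc2*, the cullin of the complex (−2.52 ± 0.56), *Fzr1*, the activator CDH1 (−2.37 ± 0.60), and *Anapc5* (−1.43 ± 0.51). In KO 0 of 18 were called from GV to MII, against the same 3.28% of all tested genes, with *Anapc15* at −1.81 ± 0.61 and *Anapc2* at −2.60 ± 0.79. From GVBD to MII in KO *Anapc2* was called lower (−2.97 ± 0.85, edgeR adjusted p = 0.0284), where 7.2% of all tested genes were called. At −2.37 without KO MII replicate 2 it was not called. Of the 21 calls of pathway genes over all comparisons, 1 held with each library left out in turn, the fall of *Anapc15* from GV to MII in WT. Between KO and WT 0 of these EMI2 and APC/C partners were called at any stage. The share of all tested genes called was 0.0977% at GV, 2.54% at GVBD and 0.803% at MII. On the TMM scale the GV to MII counts in WT were 4 higher and 3 lower for the EMI2 partners and 4 higher and 2 lower for the APC/C genes. Of all tested genes 24.7% were called in either direction there and 8.47% higher. A direction for either list therefore depends on the scale.

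Finally, the genes with the most similar profiles were sought for *Mos* and *Fbxo43*. The measure was the root mean square difference of log2 scaled counts over the 12 libraries, after centring each gene on its WT GV mean, among 10835 genes whose counts averaged 50 or more. Nearest to *Mos* were *Sec13* (0.13), which encodes a coat protein of COPII vesicles and of the nuclear pore, *Atxn2l* (0.221), an ataxin-2-like RNA-binding protein gene, and *Pdia5* (0.235), a protein disulfide isomerase gene. Nearest to *Fbxo43* were *Ext1* (0.143), a heparan sulfate polymerase gene, *Jkamp* (0.147) and *Lin52* (0.159), a DREAM complex gene. *Sec13* shared the dip of *Mos* in WT GVBD, at −0.79 against −0.89 relative to WT GV on the log2 scale. These are descriptions of 12 libraries that share 1 spike-in scale.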

How the data were processed

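The authors deposited counts, that is whole reads for each gene in each library, not normalized. The submitters' processing notes name cutadapt 1.9, HISAT2 2.0.4, StringTie 1.3.4d, DESeq2 and edgeR, with the build mm10. The step that gave whole-number counts, the annotation release and the use of strand were not given in the sources used here. The study's methods describe SMART-type libraries from polyadenylated mRNA with ERCC RNA added at lysis, while the labels describe a bulk preparation from mRNA captured by oligo(dT), and which was used is not settled here. Where RNA is selected by its tail, tail length and RNA amount are not separated, and PCR copies are not independent molecules.

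Symbols matched 52073 of the 56691 genes, which carried at least 99.4% of the counts of every library. Positions and lengths are those of GENCODE M21 (GRCm38). Libraries were grouped by the genotype and stage of their labels. The 11 comparisons (KO against WT at each stage and over all stages, each pair of stages within a genotype, and the interaction of genotype with the GV to MII step) were fitted with edgeR 4.0.16 in R 4.3.3 (glmQLFit and glmQLFTest, two-sided) to the libraries of the groups compared. Library sizes followed the summed ERCC counts, genes were kept by filterByExpr, and standard errors were derived from the F statistic. The fits were tested on simulated data with less spread between replicates than these libraries and larger changes than most members had. That test does not show how many changes of the size seen here would be missed.

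Named were the 8 members, *Alkbh5*, the paralogs *Map2k2* and *Rps6ka6*, at most 4 called genes per pathway list and comparison, and the 3 most similar profiles for *Mos* and *Fbxo43* (pseudocount 0.5, genes without a Gm, Rik or Ensembl name). The fold changes of *Rps6ka1* and *Rps6ka2* are not printed, and 1 further paralog of the rule is not reported here. The members and lists were chosen with earlier results of these data known. Other settings tried were scaling by TMM or by median of ratios, no filter on low counts, DESeq2 1.42.0, all 12 libraries in one model, a replicate block, no fold minimum, the longest transcript as length, and leaving out each library in turn.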

Additional observations from a re-analysis of the deposited data

How the results depend on the processing

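The number of members called kept within 1.5 times its value, or stayed at 0, under every alternative not named here. DESeq2 called 1 member between KO and WT at GVBD (*Mapk3*). From GV to MII in KO the number moved with TMM scaling and without KO MII replicate 2, chosen after seeing the data, where *Fbxo5* was at 1.02. With TMM and with median-of-ratios scaling 3 members were called from GV to MII in WT (1 on the spike-in scale) and 2 in KO (0). Both scalings, which take the fall of the typical gene as no change, called 4 from GVBD to MII in WT (0). In the last comparison DESeq2, the fit to all 12 libraries and the replicate block each called 2 (*Mos* and *Rps6ka3*). Leaving out 1 library leaves a single one in its group, and the number of members called moved in some of these fits. It moved from GV to MII in WT without either WT GV library, and over all stages without KO MII replicate 2. Without KO MII replicate 1 it moved from GV to MII and from GVBD to MII in KO. From GV to MII in KO the RSK members were involved, and *Rps6ka1* and *Rps6ka2* had 19 and 4 raw counts in the remaining KO MII library. The share of all tested genes called in these fits is not given here. On TMM-scaled log counts, the deviations of the replicates correlated at −0.24 to 0.25 between the groups compared. That measure leaves out a shift shared on the spike-in scale. Reads of genes per ERCC read were lower in replicate 2 in each group, for example 98.9 against 104.9 in WT GV and 47.0 against 73.3 in WT MII. Whether the replicate numbers pair the libraries is therefore not settled. The replicate block moved the calls of no other comparison. Crossing the numbers where this correlation was under −0.1, a choice made after seeing the data, called 0 members for KO against WT at GV and at MII and for GVBD to MII in KO.

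Of the log2 fold changes printed, these changed sign with TMM and with median-of-ratios scaling: KO against WT at GV for *Map2k1* (−0.00825 and −0.00727), *Rps6ka3* (−0.18 and −0.18) and *Fbxo5* (−0.00707 and −0.0063); at MII for *Mos* (−0.11 and −0.11); over all stages for *Rps6ka3* (−0.10 and −0.13); and GV to MII for *Mapk3* in WT (0.79 and 0.84) and *Fbxo5* in WT (0.67 and 0.71) and KO (0.92 and 0.95). On leaving out 1 library, signs changed within these ranges. For KO against WT they were −0.0498 to 0.38 (*Rps6ka3*, GV), −0.55 to 0.24 (*Rps6ka3*, GVBD), −0.21 to 0.43 (*Mos*, MII), −0.18 to 1.11 (*Rps6ka3*, MII), −0.35 to 1.07 (*Fbxo5*, MII) and −0.0554 to 0.35 (*Rps6ka3*, all stages). From GV to MII in WT they were −0.11 to 0.62 (*Map2k1*), −0.53 to 0.23 (*Mapk3*), −0.0435 to 0.56 (*Fbxo43*) and −0.80 to 0.21 (*Fbxo5*), and in KO −0.22 to 0.42 (*Mos*), −0.12 to 0.51 (*Mapk3*) and −0.90 to 0.44 (*Fbxo5*). The cause of these changes was not tested. With 2 libraries per group, the SE of the 6 well-counted members ran from 0.46 to 0.84 in the comparisons with MII, which limits what could be called.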

Other observations

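Among the paralogs of the 8 genes, *Map2k2* (MEK2) had 56 to 132 counts in a WT library and a log2 change from GV to MII of −1.75 ± 0.73 in WT (edgeR adjusted p = 0.0509). *Rps6ka6* (RSK4) had 144 to 574 counts in a library, with a log2 change from GV to MII of −0.25 ± 0.54 for WT and 0.14 ± 0.71 for KO. The *Rps6ka6* share of RSK mRNA per length was 22.2% and 17.4% in WT GV and 36.8% and 36.0% in WT MII, and the groups did not overlap.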
